A study of Homo sapiens with 6 samples.

Results

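The Wnt genes examined here are the 46 genes of the deposited tables named as Wnt ligands (19 genes), Frizzled receptors (10), the LRP5 and LRP6 co-receptors (2), R-spondins (4), Axins (2) or secreted antagonists of the DKK, SFRP and WIF1 families (9), out of 57820 genes in all. The rule uses gene names and no measured value, but it was set with earlier results of these data known. RNA-seq was performed on untreated AID-DivA cells, an osteosarcoma line derived from U2OS that carries an auxin-degradable AsiSI nuclease, which was not induced. The 3 WT and the 3 ARID1A-KO samples share this background, and the knockout was made with Cas9 and guides against ARID1A. The clone that was sequenced is not given in the sources used here, so the 3 ARID1A-KO samples may come from 1 clone, and an effect of ARID1A cannot be told apart from a difference between clones.

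Wnt ligands are lipid-modified secreted proteins that bind a Frizzled receptor, and in the canonical branch also LRP5 or LRP6. This stabilizes β-catenin, which then activates target genes together with TCF/LEF factors, while Axins are scaffolds of the complex that degrades it. R-spondins strengthen the signal by sparing Frizzled receptors from degradation, DKK proteins act mainly on LRP5 and LRP6, and SFRP proteins and WIF1 bind the ligands. Other ligands, with WNT5A as the best known example, act mainly through planar cell polarity and calcium signaling. In bone, canonical Wnt signaling promotes the osteoblast lineage, from which osteosarcomas are thought to arise.

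Total gene counts ranged from 54512105 to 84088708 per sample. ARID1A had 166, 178 and 177 CPM (counts scaled to the library size, normalized by TMM) in the WT samples and 25.1, 27.5 and 25.2 CPM in the ARID1A-KO samples (log2 fold change -2.74, SE 0.07, edgeR adjusted p = 9.66e-08), with means of 173 ± 6.67 CPM in WT against 25.9 ± 1.38 in ARID1A-KO cells (SD, n = 3 each). Of 10 osteoblast lineage markers, 7 were tested and 5 of them were lower in ARID1A-KO cells, where 18.4% of all genes tested were lower, among them ALPL, the tissue alkaline phosphatase of mineralizing bone (log2 fold change -2.45), and SPARC (-0.89). Their summed level was 962 to 1030 TPM (counts per exonic length, scaled per sample and comparable between genes) in WT against 549 to 600 in ARID1A-KO cells, whereas SP7, BGLAP and IBSP stayed below the limit for testing. SPARC made up most of this sum, with a mean of 690 TPM in WT against 377 in ARID1A-KO cells. RUNX2 (log2 fold change -0.03) and COL1A2 (-0.46) were not called. Of 4 leukocyte markers, 3 were tested, ITGAM was higher and PTPRC lower, CD3E had at most 1 count in any sample, and their summed level was 1.79 to 2.58 TPM in WT against 3.47 to 4.38 in ARID1A-KO cells. Of 3 endothelial markers, 1 was lower (1.61 to 3.01 TPM in WT, 1.37 to 1.53 TPM after knockout), and of 5 epithelial markers, 1 was higher and 2 were lower (10.1 to 14 TPM and 13.3 to 14 TPM). The part of these markers in the results below was not tested.

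Of the 46 genes, 35 had enough counts to be tested, and 19 of these were called, 10 as higher and 9 as lower after knockout of ARID1A (edgeR's quasi-likelihood test, adjusted p under 0.05). This is 54.3% of the tested Wnt genes, while 36.2% of all 19599 genes tested were called, 17.8% as higher and 18.4% as lower. The median log2 fold change of the tested Wnt genes was -0.05, and that of all genes tested was 0.007. Of the called Wnt genes, 7 rose and 7 fell by at least 1.5-fold, together 40.0% of those tested, against 19.4% of all genes (9.36% higher, 10% lower). At least 2-fold, 4 rose and 3 fell, where the shares of all genes were 4.86% and 5.92%, together 10.8%. For 22 Wnt genes, or 62.9%, the CPM values of both genotypes were fully apart, against 49.5% of all genes.

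The 11 genes that were not tested were the ligands WNT1, WNT2, WNT8A, WNT8B, WNT9B and WNT16, the antagonists DKK4, SFRP2, SFRP5 and WIF1, and RSPO2. None of them exceeded 21 counts in a sample, and SFRP2 and SFRP5 had 0 counts in all 6. A mean of at least 1 TPM was reached by 29 genes in WT and by 27 in ARID1A-KO cells.

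**Figure D1:**
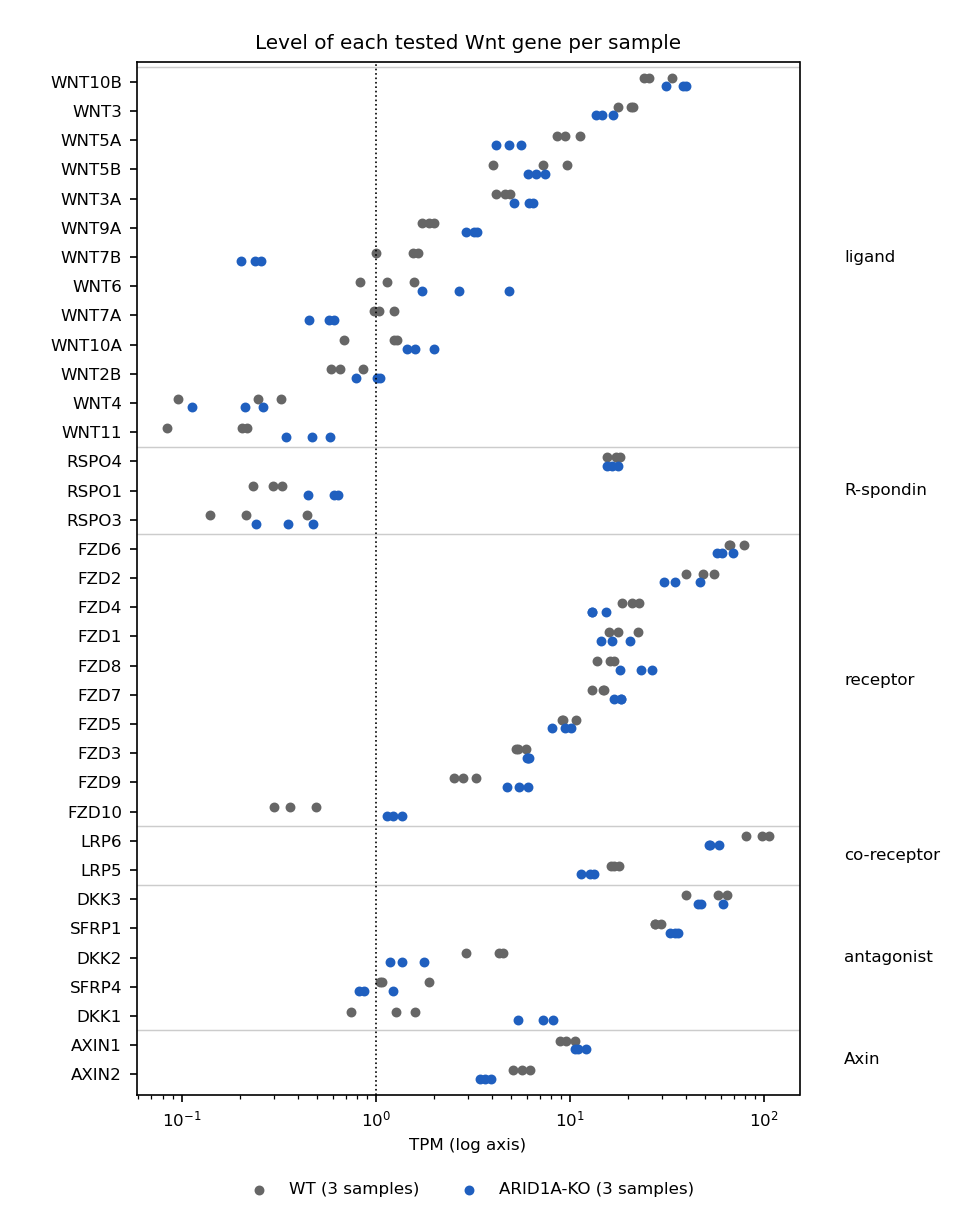
Level in TPM, on a log axis, of the 35 tested Wnt genes in each of the 3 WT (grey) and 3 ARID1A-KO (blue) samples, grouped by role, with a dotted line at 1 TPM. LRP6, FZD6, DKK3 and FZD2 had the highest levels in WT, and the samples of WNT7B, FZD10 and DKK1 stood furthest apart between the genotypes.

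Among the ligands, 13 of 19 were tested, 3 were higher and 4 lower, where 17.8% of all genes tested were higher and 18.4% lower. WNT10B, a canonical ligand that promotes bone formation, had the highest level of all ligands in both genotypes. It had 24.1, 33.6 and 25.6 TPM in the WT samples and 38.5, 39.9 and 31.2 TPM in the ARID1A-KO samples (replicates 3, 4 and 5 in this order, as for all values per sample). The genotypes overlapped, since WT replicate 4 was above ARID1A-KO replicate 5. Its log2 fold change of 0.38 (SE 0.15) was not called (edgeR, adjusted p = 0.0748). It was called with DESeq2 (adjusted p = 0.0389), without a filter on low counts (0.00234), without WT replicate 4 (0.54, edgeR adjusted p = 0.011) and without ARID1A-KO replicate 5 (0.50, adjusted p = 0.0217), with values from 0.00234 to 0.234 over all alternatives.

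WNT3, the next ligand by level in WT, was lower in every ARID1A-KO sample, with 20.6, 17.8 and 21.3 TPM in WT and 13.7, 14.7 and 16.7 TPM in ARID1A-KO cells. Its log2 fold change was -0.42 (SE 0.10, edgeR adjusted p = 0.0089). WNT5A fell more. This ligand of the non-canonical branch (ENSG00000114251.9, chromosome 3 from 55499743 to 55523973 on the minus strand in GRCh37) had 16.7, 13.1 and 14.5 CPM in WT and 6.33, 7.35 and 8.21 CPM in ARID1A-KO cells. No sample overlapped, and the mean was 2.02-fold lower, a log2 fold change of -1.01 (SE 0.13, edgeR adjusted p = 0.000327). WNT5B, its close relative, overlapped between the genotypes. It ranged from 3.85 to 9.52 CPM within WT alone, and its log2 fold change was -0.06 (SE 0.27, edgeR adjusted p = 0.877).

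The relatives WNT7A and WNT7B were both lower. WNT7B (ENSG00000188064.5, chromosome 22 from 46316242 to 46373009 on the minus strand), which drives bone formation in the mouse embryo, had 124, 83 and 106 counts in WT and 16, 15 and 25 counts in ARID1A-KO cells. This is 1.62 ± 0.388 CPM in WT against 0.264 ± 0.0257 in ARID1A-KO cells (SD, n = 3 each), 6.12-fold lower, and the largest fall of any tested Wnt gene, with a log2 fold change of -2.60 (SE 0.25, edgeR adjusted p = 6.83e-05). WNT7A (ENSG00000154764.5, chromosome 3 from 13857755 to 13921618 on the minus strand) had 1.06, 1.03 and 1.32 CPM in WT and 0.602, 0.473 and 0.614 CPM in ARID1A-KO cells, a log2 fold change of -1.00 (SE 0.20, edgeR adjusted p = 0.00418). Both were low genes in WT, at 1.41 TPM for WNT7B and 1.09 TPM for WNT7A.

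The 3 higher ligands were also low genes. WNT9A had 1.66, 1.82 and 1.58 CPM in WT and 2.92, 3.00 and 2.56 CPM in ARID1A-KO cells, a log2 fold change of 0.74 (SE 0.15, edgeR adjusted p = 0.00374), and was called in every alternative fit. WNT6 had 29, 23 and 36 counts in WT and 46, 57 and 160 counts in ARID1A-KO cells, so that ARID1A-KO replicate 5 stood well above the other samples. Its log2 fold change was 1.39 (SE 0.38, edgeR adjusted p = 0.0189), and it was 0.90 (adjusted p = 0.0561) without that sample. The call was also lost without WT replicate 3 (1.35, adjusted p = 0.0663) and without WT replicate 4 (1.19, adjusted p = 0.0512). Over the alternatives, the adjusted p ranged from 5.46e-07, in the fit without a filter on low counts (1.38), to 0.0663. WNT11, a non-canonical ligand, had 3, 8 and 7 counts in WT and 13, 14 and 27 counts in ARID1A-KO cells. With so few counts its log2 fold change of 1.44 (SE 0.41, edgeR adjusted p = 0.022) was not called without 1 of WT replicate 3 (1.10, adjusted p = 0.0799) and replicates 4 (1.44, adjusted p = 0.0589) and 5 (1.24, adjusted p = 0.0753) of ARID1A-KO, nor with DESeq2 (1.44, adjusted p = 0.0898), and 0.011 was the lowest value.

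Of the ligands that were not called, WNT10A (log2 fold change 0.65, edgeR adjusted p = 0.0693) and WNT3A (0.36, adjusted p = 0.076) did not overlap between the genotypes, both with higher values in ARID1A-KO cells, and WNT10A was called without a filter on low counts (0.65, adjusted p = 0.0221). WNT2B (0.43, adjusted p = 0.0892) and WNT4 (-0.16) overlapped, and WNT2B was called without WT replicate 3 (0.58, adjusted p = 0.047). WNT2B lies across ST7L, a gene on the opposite strand, and only the counting by strand keeps their reads apart. The summed level of the 19 ligands was 76.7 ± 3.72 TPM in WT against 79.8 ± 3.78 in ARID1A-KO cells (SD, n = 3 each), which overlapped. The shares of single ligands in this sum were not tested. WNT10B made up 36.0% ± 5.00 of the sum in WT against 45.9% ± 5.84 in ARID1A-KO cells, WNT3 26.0% ± 3.36 and 18.9% ± 1.90, and WNT5A 12.8% ± 2.44 and 6.13% ± 0.871. In a bulk sample, fewer cells that express a gene and less RNA of it per cell cannot be told apart.

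**Figure D2:**
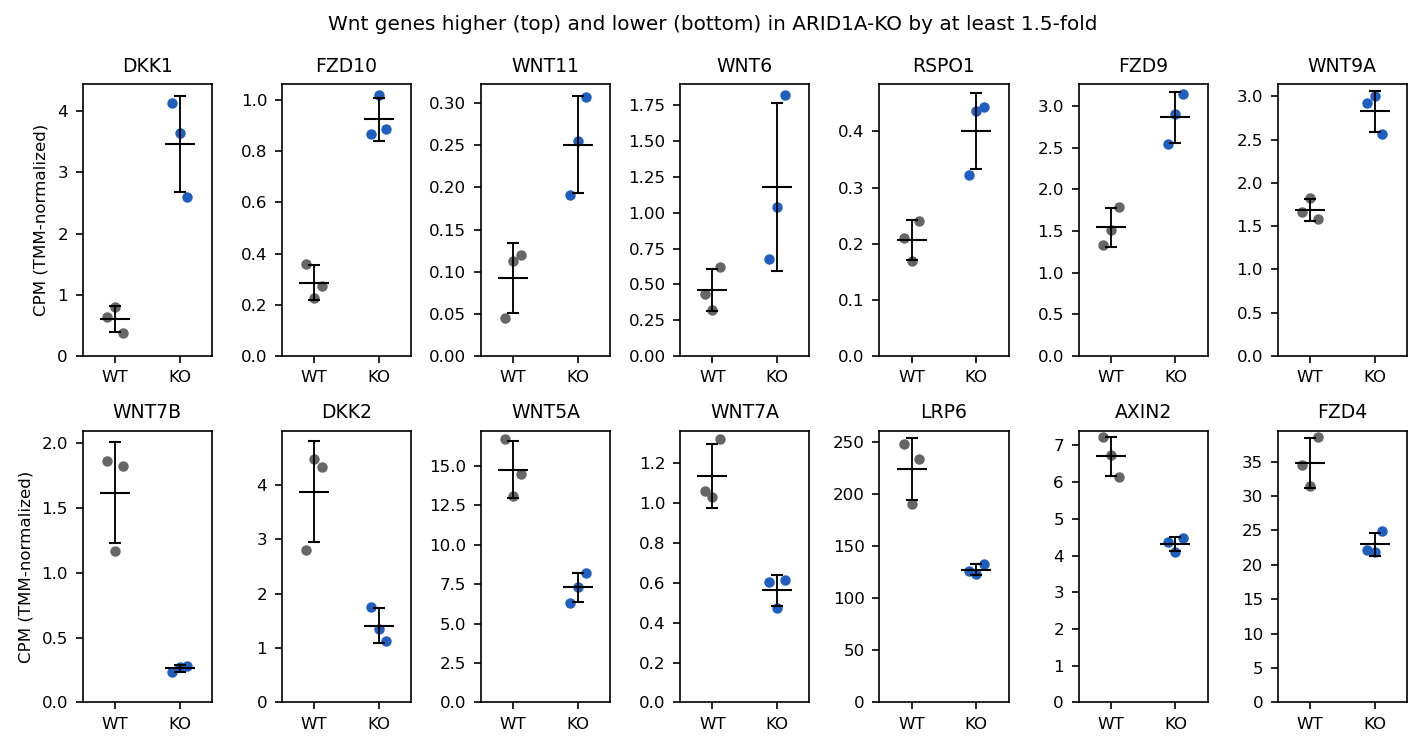
CPM, normalized by TMM and on linear axes from 0, in each sample for the 7 Wnt genes higher (top row) and the 7 lower (bottom row) by at least 1.5-fold in ARID1A-KO (KO) cells, with the mean and SD of 3 samples in black. No panel shows overlap between WT (grey) and ARID1A-KO (blue) samples, and WNT6 has 1 ARID1A-KO sample at 1.82 CPM, above the 0.676 and 1.04 of the other samples.

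RSPO4 made up nearly all of the R-spondin level, with 96.4% ± 1.16 of the sum in WT against 93.7% ± 1.60 in ARID1A-KO cells. It had 15.6, 17.4 and 18.1 TPM in WT and 16.5, 17.8 and 15.6 TPM in ARID1A-KO cells. The genotypes overlapped, and its log2 fold change was -0.05 (SE 0.11, edgeR adjusted p = 0.736). RSPO1 was higher at a low level, with 14, 12 and 14 counts in WT and 22, 24 and 39 counts in ARID1A-KO cells (log2 fold change 0.96, SE 0.28, edgeR adjusted p = 0.0236). The call was lost without WT replicate 3 (0.97, adjusted p = 0.0682), WT replicate 4 (0.83, 0.077), ARID1A-KO replicate 4 (0.91, 0.0801) or ARID1A-KO replicate 5 (0.87, 0.07), and with DESeq2 (0.96, 0.119), against a lowest adjusted p of 0.0166. RSPO3 stayed below 30 counts in every sample and was not called (log2 fold change 0.41, SE 0.43).

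All 10 Frizzled receptors were tested, and 4 were higher and 1 lower, where 17.8% of all genes tested were higher and 18.4% lower. The receptors with the highest levels were not called. FZD6 had 78.9, 67.1 and 66.1 TPM in WT and 60.8, 57.3 and 69.5 TPM in ARID1A-KO cells. These overlapped, whereas its CPM did not, at 71.6, 62.3 and 62.0 CPM in WT and 56.6, 52.9 and 61.8 CPM in ARID1A-KO cells (log2 fold change -0.19, SE 0.08, edgeR adjusted p = 0.0977). FZD2 had 48.0 ± 7.99 TPM in WT against 37.6 ± 8.51 in ARID1A-KO cells (SD, n = 3 each) and a log2 fold change of -0.37 (SE 0.16, edgeR adjusted p = 0.0974). Without ARID1A-KO replicate 5 both were called, FZD6 at -0.25 (adjusted p = 0.0414) and FZD2 at -0.55 (0.0178), and FZD2 also without WT replicate 4 (-0.49, 0.0325), with DESeq2 (-0.38, 0.0497) and without a filter on low counts (-0.38, 0.00177). The adjusted p reached 0.315 for FZD6 and 0.302 for FZD2, with 0.00177 the lowest for FZD2.

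FZD4, a receptor for Norrin as well as for Wnt ligands, was the lower receptor (ENSG00000174804.3, chromosome 11 from 86656721 to 86666433 on the minus strand). It had 34.5, 31.4 and 38.6 CPM in WT and 22.2, 21.9 and 24.9 CPM in ARID1A-KO cells, with no overlap (log2 fold change -0.60, SE 0.09, edgeR adjusted p = 0.00104). PRSS23, which overlaps it on the opposite strand, had 57 counts in all. For the 40 tested neighbours with a start within 5 Mb of that of FZD4, the median log2 fold change was -0.23, and with this median taken off, FZD4 was at -0.37 (adjusted p = 0.0155).

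The largest rise of a receptor was that of FZD10 (ENSG00000111432.4, chromosome 12 from 130647004 to 130650285 on the plus strand), a gene with little expression in most adult tissues. It had 24, 16 and 16 counts in WT and 59, 56 and 78 counts in ARID1A-KO cells, 0.385 ± 0.0968 TPM and 1.25 ± 0.11 (SD, n = 3 each). All ARID1A-KO samples were above all WT samples, by 3.22-fold in mean CPM (log2 fold change 1.68, SE 0.23, edgeR adjusted p = 0.000564). FZD9 rose from 1.33, 1.51 and 1.79 CPM to 2.54, 2.91 and 3.14 CPM (log2 fold change 0.90, SE 0.17, edgeR adjusted p = 0.00273). Both were called in every alternative fit.

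FZD8 (log2 fold change 0.52, SE 0.15, edgeR adjusted p = 0.0262) and FZD7 (0.31, SE 0.09, 0.0216) were also higher, but lost their calls without some of the samples. FZD8 had 9.88, 12.3 and 11.8 CPM in WT and 17.0, 19.2 and 12.6 CPM in ARID1A-KO cells, and the lowest ARID1A-KO sample was close to the highest WT sample. Its call was lost without WT replicate 3 (0.42, edgeR adjusted p = 0.101), WT replicate 5 (0.54, 0.0612), ARID1A-KO replicate 3 (0.49, 0.0769) or ARID1A-KO replicate 4 (0.38, 0.106). That of FZD7 was lost without WT replicate 3 (0.32, 0.0558), WT replicate 4 (0.25, 0.0614) or ARID1A-KO replicate 4 (0.28, 0.095). The lowest adjusted p over the alternatives was 7.87e-05 for FZD8, in the fit without a filter on low counts, and 0.00992 for FZD7. FZD1, FZD3 and FZD5 had log2 fold changes of -0.15, 0.11 and -0.09 and overlapped between the genotypes. The summed level of the receptors was 207 ± 15.4 TPM in WT against 194 ± 16.9 in ARID1A-KO cells, which overlapped.

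Both co-receptors were lower, where 18.4% of all genes tested were lower. LRP6 (ENSG00000070018.4, chromosome 12 from 12268959 to 12419946 on the minus strand) had the highest level of all 46 genes in WT, with 107, 81.0 and 98.3 TPM, and had 53.2, 52.3 and 58.9 TPM in ARID1A-KO cells. Its lowest WT sample was well above its highest ARID1A-KO sample, and its log2 fold change was -0.82 (SE 0.09, edgeR adjusted p = 0.000188). LRP5, in which loss-of-function mutations cause low bone mass, had 16.4, 16.9 and 17.9 TPM in WT and 11.4, 13.4 and 12.8 TPM in ARID1A-KO cells, a log2 fold change of -0.46 (SE 0.09, edgeR adjusted p = 0.00266). Together they came to 113 ± 13.2 TPM in WT against 67.3 ± 3.85 in ARID1A-KO cells (SD, n = 3 each). For the neighbours of LRP6 the median was -0.13, and with this taken off it was at -0.68 (adjusted p = 0.000675), while those of LRP5 had a median of 0.11.

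Among the antagonists, DKK1 and DKK2 moved in opposite directions. DKK1 (ENSG00000107984.5, chromosome 10 from 54074056 to 54077802 on the plus strand) binds LRP5 and LRP6 and blocks canonical signaling, and is itself a target of β-catenin. It had 42, 57 and 22 counts in WT and 282, 200 and 229 counts in ARID1A-KO cells. Every ARID1A-KO sample was above every WT sample, with 0.604 ± 0.214 CPM in WT against 3.46 ± 0.785 in ARID1A-KO cells (SD, n = 3 each), 5.73-fold higher, and this was the largest rise of any tested Wnt gene (log2 fold change 2.50, SE 0.28, edgeR adjusted p = 0.000149). Its 36 neighbours had a median of 0.22, and with this taken off DKK1 was at 2.28 (adjusted p = 0.000331). DKK2, which can activate or inhibit LRP6 depending on the cell, had 2.80, 4.48 and 4.33 CPM in WT and 1.75, 1.35 and 1.12 CPM in ARID1A-KO cells, without overlap. It was 2.75-fold lower (log2 fold change -1.46, SE 0.23, edgeR adjusted p = 0.00108).

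The antagonists with the highest levels changed little. DKK3, a relative of DKK1 that does not bind LRP6 in the same way, had 58.2, 39.9 and 64.9 TPM in WT and 45.8, 47.6 and 61.4 TPM in ARID1A-KO cells, which overlapped (log2 fold change -0.09, SE 0.17, edgeR adjusted p = 0.696). SFRP1, a soluble protein with a Frizzled-like ligand-binding domain, had 27.6, 29.6 and 27.4 TPM in WT and 34.8, 36.2 and 32.9 TPM in ARID1A-KO cells. It did not overlap and was called at 0.28 (SE 0.08, edgeR adjusted p = 0.0168), but not without WT replicate 3 (0.24, 0.0664), WT replicate 5 (0.27, 0.0507), ARID1A-KO replicate 3 (0.27, 0.0616) or ARID1A-KO replicate 4 (0.24, 0.083), with 0.00802 the lowest adjusted p. SFRP4 had a log2 fold change of -0.46 (SE 0.27, edgeR adjusted p = 0.212) and overlapped, and EPDR1, on the opposite strand across it, had 25306 counts against its 385. Of the Axins, AXIN2, a feedback target of β-catenin in many cell types, had 7.22, 6.73 and 6.15 CPM in WT and 4.36, 4.09 and 4.47 CPM in ARID1A-KO cells (log2 fold change -0.64, SE 0.11, edgeR adjusted p = 0.00239). AXIN1, which is not such a target, had 8.92, 9.62 and 10.6 TPM in WT and 11.1, 12.1 and 10.6 TPM in ARID1A-KO cells and was not called (0.20, SE 0.10, edgeR adjusted p = 0.149).

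**Figure D3:**
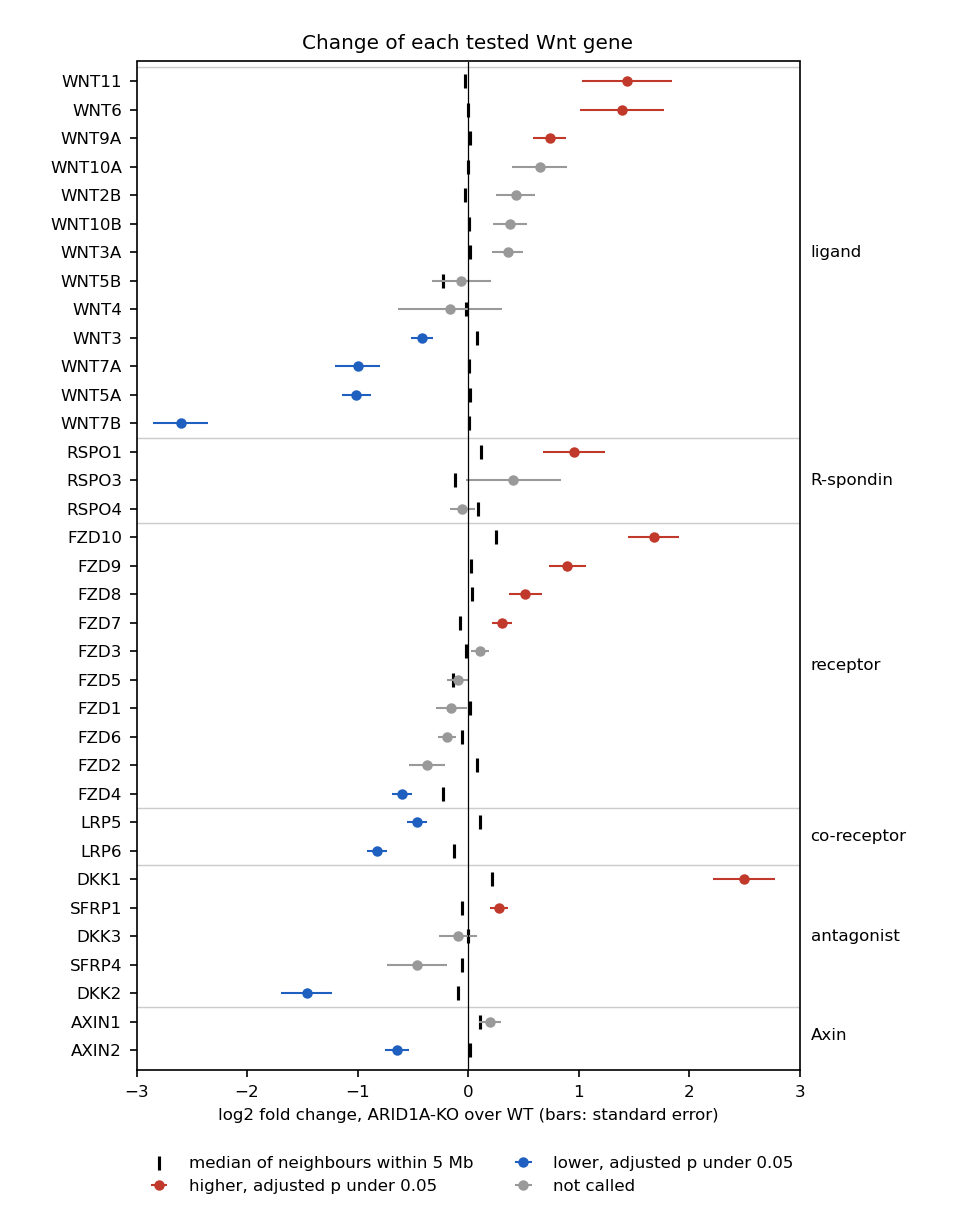
log2 fold change of ARID1A-KO over WT cells for the 35 tested Wnt genes by role, with the standard error as a bar, in red for higher and blue for lower genes at an adjusted p under 0.05 and grey for genes not called, and a black tick at the median log2 fold change of the other genes tested within 5 Mb. DKK1 (2.50) and WNT7B (-2.60) lie at the ends, both co-receptors are on the lower side, and the ticks all lie between -0.23 and 0.25.

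The promoter windows of DKK1, the gene with the largest rise, and of the lower ligands WNT5A and WNT7A are shown from the RefSeq table, which has no entry for WNT7B. Each window holds the 250 bases before and 50 bases after a RefSeq start site, 300 in all, read in the direction of transcription, and each was found once in GRCh37. Capitals mark a TCF/LEF motif, searched for as CTTTGAT or CTTTGAA on both strands. The windows are that of DKK1 on chr10:54073791-54074090 (plus strand), those of WNT5A on chr3:55515377-55515676 and chr3:55521285-55521584 (minus strand), and that of WNT7A on chr3:13921519-13921818 (minus strand). The RefSeq start sites of WNT5A lie 8547 and 2639 bases inside the deposited gene, so neither window covers the start of the counted gene. Those of DKK1 and WNT7A lie 15 and 50 bases from the deposited starts.
DKK1: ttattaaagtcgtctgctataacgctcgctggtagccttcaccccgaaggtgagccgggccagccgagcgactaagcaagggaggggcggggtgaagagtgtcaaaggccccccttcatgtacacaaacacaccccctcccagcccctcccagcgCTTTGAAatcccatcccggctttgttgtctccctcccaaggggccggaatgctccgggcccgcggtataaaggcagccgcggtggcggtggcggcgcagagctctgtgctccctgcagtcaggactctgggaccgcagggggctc
WNT5A, first window: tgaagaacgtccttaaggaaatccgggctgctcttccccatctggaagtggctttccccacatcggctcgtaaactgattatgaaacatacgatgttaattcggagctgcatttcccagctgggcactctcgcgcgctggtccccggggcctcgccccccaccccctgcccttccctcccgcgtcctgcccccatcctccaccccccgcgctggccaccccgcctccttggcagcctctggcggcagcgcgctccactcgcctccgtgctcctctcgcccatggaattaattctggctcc
WNT5A, second window: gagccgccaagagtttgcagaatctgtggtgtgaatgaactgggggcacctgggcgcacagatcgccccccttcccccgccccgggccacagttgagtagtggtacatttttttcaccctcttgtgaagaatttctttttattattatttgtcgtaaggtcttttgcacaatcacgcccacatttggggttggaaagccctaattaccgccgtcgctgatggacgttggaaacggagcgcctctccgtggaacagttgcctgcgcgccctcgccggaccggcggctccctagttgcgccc
WNT7A: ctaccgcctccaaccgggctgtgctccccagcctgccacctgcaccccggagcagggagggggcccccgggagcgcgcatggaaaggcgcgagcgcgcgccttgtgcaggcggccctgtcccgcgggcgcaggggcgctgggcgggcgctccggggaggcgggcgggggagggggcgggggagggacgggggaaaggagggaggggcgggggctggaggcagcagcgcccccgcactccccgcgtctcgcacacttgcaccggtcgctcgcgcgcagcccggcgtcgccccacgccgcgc

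Of these windows, only that of DKK1 held a form searched for, CTTTGAA from base 156 of the window. Other forms of the TCF/LEF motif were not searched for and are not marked. DKK1 also had the only window with such a match among 34 windows of 31 Wnt genes (2.9%), where 6.9% of all 35116 promoter windows of the same length had a match. The AP-1 motif, searched for as TGACTCA or TGAGTCA on both strands, was in 0 of the 34 windows and in 4.9% of all. The Wnt windows were rich in CpG. A ratio of observed to expected CpG of at least 0.6 was found in 28 of the 34, or 82.4%, against 48.9% of all windows. It was found in all 6 windows of higher and all 6 of lower genes, the latter with both windows of WNT5A. It was also found in 10 of 13 windows of genes not called and in 6 of 9 of genes not tested. A match or its absence describes these letters in this window and is no evidence of binding.

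The 9 lower calls, those of WNT3, WNT5A, WNT7A, WNT7B, FZD4, LRP5, LRP6, DKK2 and AXIN2, were kept in every alternative fit. Of the 10 higher calls, 4 were kept in every one, those of DKK1, WNT9A, FZD9 and FZD10. The share of all called genes kept in every alternative fit was not determined, so this split by direction is not a result about the Wnt genes. None of the 35 tested genes had neighbours within 5 Mb whose median passed 0.3 in either direction, and the medians ran from -0.23 to 0.25.

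Other genes of the pathway were examined in lists that hold 63 genes besides the 46. Of these, 58 were tested, and 12 were higher and 15 lower in ARID1A-KO cells, 46.6% of those tested, with a median log2 fold change of 0.0. The counts of each list stand against the 36.2% of all genes that were called, 17.8% as higher and 18.4% as lower. In the list of planar cell polarity genes, the non-canonical branch, 2 of 9 tested genes were higher and 5 lower. PRICKLE1, a core component of this branch, had 32.2, 27.8 and 26.7 CPM in WT and 10.7, 10.8 and 12.4 CPM in ARID1A-KO cells, with a log2 fold change of -1.35 (SE 0.10, edgeR adjusted p = 1.7e-05). The other lower genes were PRICKLE2 (-0.46), VANGL1 (-0.31), VANGL2 (-0.53) and DAAM2 (-0.79), and the higher ones DAAM1 (0.62) and CELSR3 (0.39), of which VANGL2 was not called without WT replicate 3 or 5 or ARID1A-KO replicate 3 or 4 (-0.52 to -0.40, edgeR adjusted p up to 0.0635, with 1.15e-08 the lowest over the alternatives).

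Of 9 other receptors and co-receptors, 2 were higher and 4 lower. The higher ones were ROR2 (log2 fold change 0.55, edgeR adjusted p = 0.0138) and PTK7 (0.27, 0.0111). ROR2 was not called without WT replicate 3 (0.52, edgeR adjusted p = 0.0518, lowest 0.000528), nor PTK7 without ARID1A-KO replicate 4 (0.23, 0.063, lowest 0.00514). GPC4, a cell surface proteoglycan that binds Wnt ligands, had 22.4, 22.3 and 22.7 CPM in WT and 8.70, 9.84 and 10.5 CPM in ARID1A-KO cells (log2 fold change -1.22, SE 0.09, edgeR adjusted p = 1.57e-05). LGR4 (-0.57) and LGR5 (-0.64), the receptors of the R-spondins, were both lower, and LGR6 was not called (0.01). RYK was at -0.55, but its neighbours had a median of -0.44, and with this taken off it was at -0.11 (edgeR adjusted p = 0.285, against a lowest value of 7.98e-11).

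In the lists of Wnt secretion and ligand inactivation and of other antagonists, 3 genes were called, all as higher. Of all genes tested, 36.2% were called and 17.8% were higher. NOTUM, an enzyme that removes the lipid from Wnt ligands, had 7.60, 6.72 and 8.59 CPM in WT and 19.2, 23.2 and 26.3 CPM in ARID1A-KO cells (log2 fold change 1.59, SE 0.13, edgeR adjusted p = 3.32e-05). It was the only one called of the 5 tested genes of Wnt secretion and ligand inactivation. KREMEN2, a receptor for DKK proteins, had 3.90, 2.82 and 4.43 CPM in WT and 6.29, 7.99 and 13.8 CPM in ARID1A-KO cells (1.34, SE 0.28, edgeR adjusted p = 0.00535). It was called with SOSTDC1, at a mean of 0.272 CPM in ARID1A-KO cells, as 2 higher of the 6 tested genes of other antagonists, with 0 lower. SOSTDC1 had 4, 5 and 2 counts in WT and 21, 16 and 19 counts in ARID1A-KO cells.

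Inside the cell, 2 of the 12 genes of the Dishevelled and destruction complex list were higher and 3 lower. CTNNB1, which encodes β-catenin, had 312, 324 and 319 CPM in WT and 282, 281 and 259 CPM in ARID1A-KO cells, a log2 fold change of -0.22 (SE 0.06, edgeR adjusted p = 0.0196). The call was lost with the median of its neighbours taken off (-0.15, 0.0898) and without WT replicate 4 (-0.21, 0.0538) or ARID1A-KO replicate 4 (-0.23, 0.0599), and the lowest adjusted p was 0.00711. GSK3B, the kinase that marks β-catenin for degradation, was at -0.66, and its neighbours had a median of -0.43, which left -0.23 (edgeR adjusted p = 0.0397, against a lowest value of 3.77e-16). DVL3, a Dishevelled protein, was lower (-0.38) and the tankyrase TNKS2 higher (0.33), and with the medians of their neighbours taken off neither was called, at -0.15 (0.0991, lowest 6.41e-06) and 0.03 (0.72, lowest 0.000112). APC2, a relative of the tumor suppressor APC, had 1.78, 1.04 and 1.46 CPM in WT and 2.14, 3.20 and 3.87 CPM in ARID1A-KO cells, without overlap (log2 fold change 1.11, SE 0.26, edgeR adjusted p = 0.00871). With unstranded counts it was at 0.14 (edgeR adjusted p = 0.575, against a lowest value of 1.42e-07). On its own strand APC2 had 119, 74 and 85 counts in WT and 146, 176 and 341 in ARID1A-KO cells. On the opposite strand there were 1075, 1044 and 1258 counts in WT and 983, 955 and 1624 in ARID1A-KO cells. The unstranded value therefore rests mostly on reads from the opposite strand. Of 11 tested nuclear effectors, TLE3 (0.43) was higher and CTNNBIP1 (-0.45) lower, the latter not without WT replicate 4 or 5 or ARID1A-KO replicate 3 or 4 (edgeR adjusted p up to 0.122, lowest 0.00407), and TCF7L1 (0.12), TCF7L2 (0.06) and LEF1 (0.14) were not called.

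**Figure D4:**
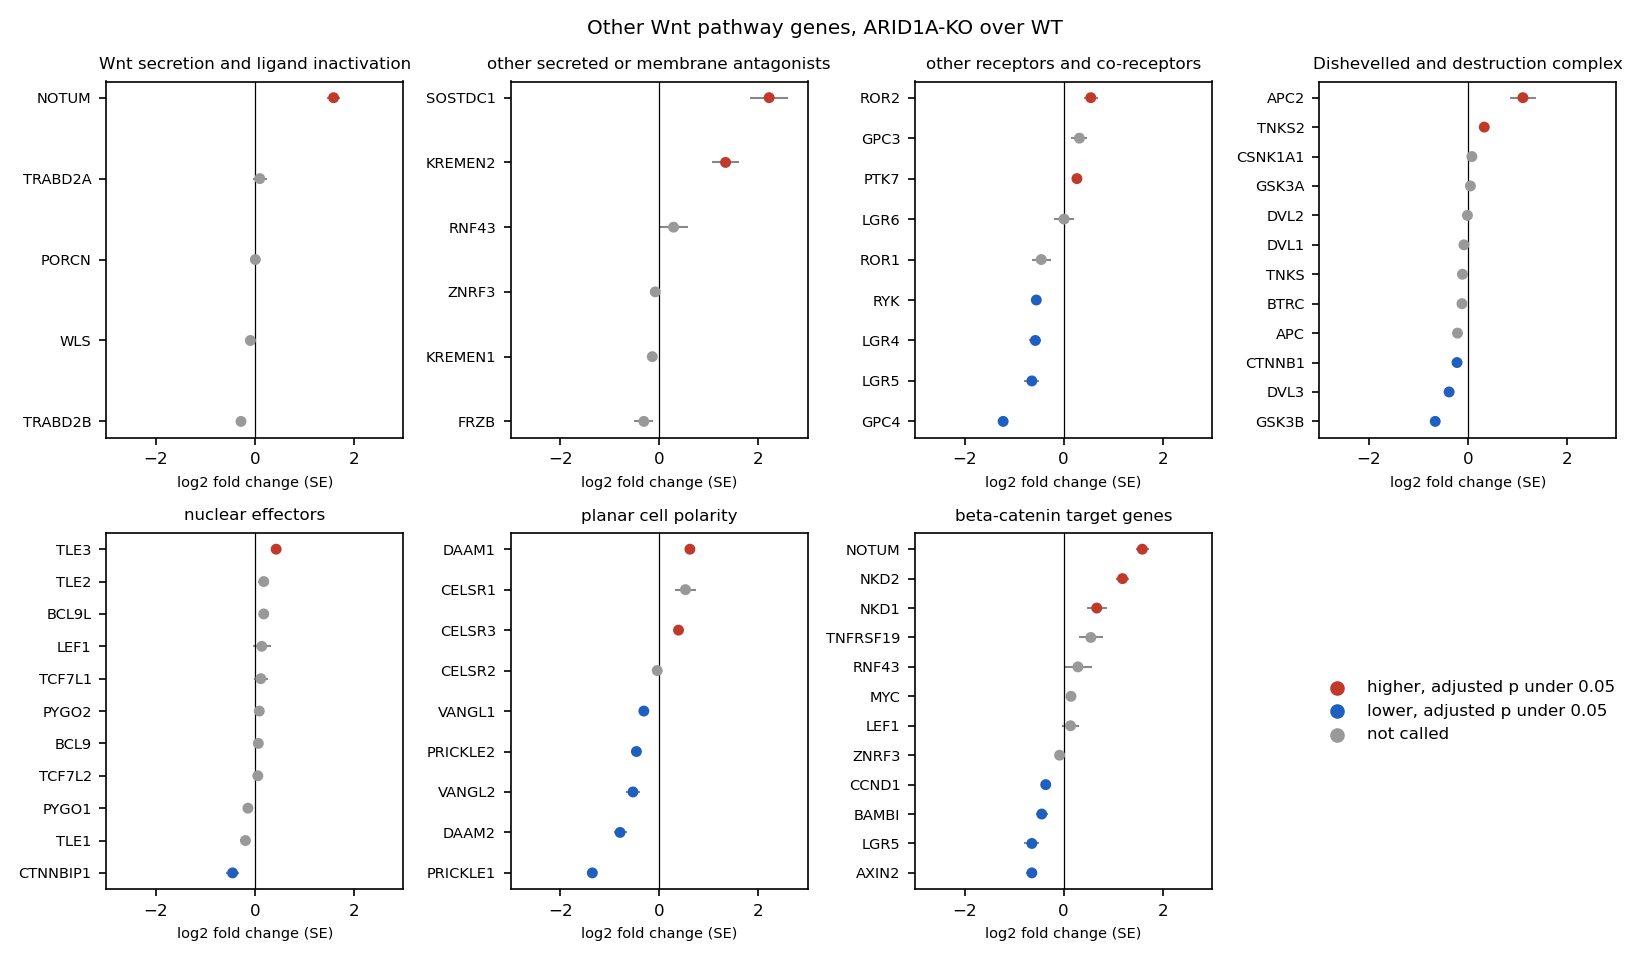
log2 fold change of ARID1A-KO over WT cells, with the standard error as a bar, for the tested genes of 7 lists of the Wnt pathway, in red for higher and blue for lower genes at an adjusted p under 0.05 and grey for genes not called. The list of β-catenin target genes shares genes with the other lists and holds NOTUM (1.59) at its higher end and AXIN2 (-0.64) at its lower end.

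β-catenin target genes did not move in 1 direction. Of 15 genes on this list, 12 were tested, 3 were higher and 4 lower, with a median log2 fold change of 0.15. DKK1 (2.50), also known as a target, is not on this list and not in these counts. The higher ones were NOTUM, NKD1 (0.67) and NKD2 (1.19). NKD2 had 4.80, 5.96 and 5.60 CPM in WT and 10.4, 13.3 and 13.5 CPM in ARID1A-KO cells (SE 0.14, edgeR adjusted p = 0.000177). The lower ones were AXIN2, LGR5, BAMBI (-0.44) and CCND1 (-0.36), which encodes cyclin D1 and had 226, 255 and 233 CPM in WT and 194, 195 and 167 CPM in ARID1A-KO cells. Without WT replicate 3 or 5 or ARID1A-KO replicate 3 or 4, neither NKD1 (0.51 to 0.70, edgeR adjusted p up to 0.0978) nor BAMBI (-0.45 to -0.37, up to 0.07) was called, and NKD1 was at 0.39 (0.168) with the median of its neighbours taken off. The lowest adjusted p was 5.24e-05 for NKD1 and 0.00588 for BAMBI. MYC was not called (0.15, edgeR adjusted p = 0.167), and SP5 had 0 counts in every sample.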

How the data were processed

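RNA-seq from AID-DivA cells, untreated, with 3 samples per genotype was used. The authors mapped the reads with STAR to hg19/GRCh37, and the deposited counts are featureCounts output for each gene. The authors also deposited FPKM values and TPM values, which are a signal per exonic length scaled to the autosomal genes. The methods name a stranded total RNA kit and the labels polyA RNA. The study describes its replicates as independent experiments, while the labels do not tie them to separate cultures or clones, so p-values measure the spread between these samples. ARID1A-KO replicates 3 and 4 differed least, with a chi-square of their counts of 7.57 per gene. The other pairs within a genotype had 18.1 to 32.9 per gene, and the cause was not tested.

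Genes with low reverse-stranded counts were removed by filterByExpr, libraries were scaled by TMM and genotypes were tested with edgeR's quasi-likelihood test (edgeR 4.0.16, R 4.3.3) with Benjamini-Hochberg adjustment over all 19599 genes tested. Standard errors were taken from the fold change and its F statistic. DESeq2 1.42.0 was an alternative. Calls and fold changes rest on counts. TPM was not tested and served to compare levels between genes and to describe levels per sample, where overlap can differ from that in CPM. Neighbours are other tested genes with a start within 5 Mb, and their median was taken off as an offset in ARID1A-KO samples. The other alternatives were RLE normalization, no filter or at least 10 counts in every sample, unstranded counts, the replicate number as a block, an adjusted p under 0.01 and each sample left out.

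The 46 genes and the lists were chosen with earlier results of these data known. Full values are given for ARID1A, for called Wnt genes changed by at least 1.5-fold and for the highest gene of each role, and for called pathway genes changed by 2-fold with a mean log2 CPM over 0, plus CTNNB1. Other pathway genes were named after their values were seen. PECAM1 was not matched, and 1 leukocyte marker is not reported here. RefSeq promoter windows (table in GRCh38.p14) matched 31 of the 46 genes, without AXIN2, DKK2, DKK3, DKK4, FZD10, FZD2, FZD3, FZD6, FZD7, LRP6, RSPO2, SFRP1, WNT10B, WNT11 and WNT7B, and were placed in GRCh37 by exact match.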

Additional observations from a re-analysis of the deposited data

Results flagged for a closer look

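Counts on the strand opposite to the gene were not used in the comparisons. Of the 12 Wnt genes with at least 20 such counts over all samples, WNT11 was the one for which every ARID1A-KO library exceeded all WT libraries. Only this direction was searched for, and the share of all genes set apart in this way on the opposite strand was not determined. It had 1, 5 and 5 in WT, 11 in all, and 10, 7 and 30 in ARID1A-KO cells, 47 in all, against 72 counts on its own strand over the 6 samples. This difference was not tested, and RP11-619A14.2, which overlaps WNT11 on that strand, had 0 counts.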

How the results depend on the processing

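The number of called Wnt genes was 19 with RLE normalization, DESeq2, unstranded counts or the median of neighbours taken off, 18 with at least 10 counts in every sample, 23 without a filter, 13 at an adjusted p under 0.01 and 14 to 19 with each sample left out. With DESeq2, 9 were higher and 10 lower. The share of all genes tested that was called was 36.1% with RLE normalization, 35.1% with DESeq2 and 34.1% with unstranded counts. It was 32.1% with the median of neighbours taken off and 36.7% with at least 10 counts in every sample. It was 22.6% without a filter, 22.5% at an adjusted p under 0.01, 26.2% to 35.3% with each sample left out and 38.1% with the replicate block. Other pathway genes called ranged from 20 to 29 and β-catenin targets from 5 to 8. ARID1A stayed between -2.80 and -2.72. Its edgeR adjusted p was 9.66e-08 in the main fit and 2.42e-172 without a filter, at nearly the same log2 fold change (-2.74 and -2.75). Lowest adjusted p values from the fit without a filter, such as those of WNT6, FZD2 and FZD8, therefore do not mark a larger change. With the replicate number as a block 22 Wnt genes were called, WNT10A (0.66, adjusted p = 0.0458), WNT10B (0.39, 0.0211) and FZD2 (-0.38, 0.0132) in addition. The deviations of same-numbered samples correlated at -0.237, 0.499 and 0.324 for replicates 3, 4 and 5, and 3 of 6 samples correlated best with their own number, so the numbers were not taken as pairs. With a limit of 5 TPM, 19 Wnt genes were expressed in WT in place of 29.

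Among the Wnt genes, only ones that were not called changed direction. WNT5B went to 0.01 with the replicate block and 0.16 with the median of neighbours taken off, where FZD5 went to 0.05. With each sample left out, WNT5B ranged from -0.36 to 0.25, WNT4 from -0.55 to 0.21, DKK3 from -0.27 to 0.06 and RSPO4 from -0.13 to 0.01. The cause was not tested. WNT11, RSPO3 and WNT4 had under 30 counts in every sample, and their values are the least precise in counting terms.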

Other observations

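Some Wnt genes had more counts on the opposite strand than on their own. WNT2B had 1577 against 966 over the 6 samples, WNT16 had 70 against 1, WNT8B had 50 against 11 and WNT4 had 91 against 87. For FZD7 the opposite strand came to 0.35% of its own and for LRP6 to 0.0466%, whereas over all genes it came to between 5.83% and 6.15% per sample. WNT2B overlaps ST7L, which is on the opposite strand and had 5984 counts on its own strand.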
